A study of Mus musculus with 2 samples.

Results

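The imprinted Dlk1-Meg3 locus of mouse chromosome 12 was described through 5 genes, Meg3, Rian, Mirg, Dlk1 and Rtl1. They were chosen by gene symbol, and all 5 were found among the 55536 annotated genes of the deposited tables. The data were total RNA-seq of hippocampus from male B6CASTF1/J mice, hybrids from a cross between C57BL/6J and CAST/EiJ. The animals were 18 to 20 months old and no treatment was named. There was 1 group of 2 libraries, replicate 1 and replicate 2, each prepared from 300 ng of RNA. The labels number them as biological replicates 1 and 2, but both carry the same donor record and separate animals are not named. Whether the spread between them is biological or technical is therefore not known. With 1 group of 2 libraries an exact sign-flip test cannot give a two-sided p below 0.5, and no p-value is reported.

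In the mouse each gene of the locus is expressed mainly from 1 parental chromosome. The noncoding RNAs Meg3, Rian and Mirg come from the maternal chromosome, and the protein-coding genes Dlk1 and Rtl1 come from the paternal chromosome, under the control of a differentially methylated region upstream of Meg3. Rian hosts C/D-box small nucleolar RNAs, and Meg3, Mirg and the strand opposite Rtl1 carry microRNAs (miRNAs). Dlk1 encodes a transmembrane protein of the Delta family with epidermal-growth-factor repeats, and Rtl1 encodes a protein derived from a retrotransposon that is needed in the placenta. These parental origins are background: the deposited values do not separate the alleles.

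In the mm10 assembly with the GENCODE M21 annotation, Dlk1 lies at chr12:109452823-109463336 on the plus strand, Meg3 at chr12:109541001-109571726 on the plus strand, Rtl1 at chr12:109589193-109600330 on the minus strand, Rian at chr12:109603940-109661716 on the plus strand and Mirg at chr12:109729764-109749460 on the plus strand. The stretch from the start of Dlk1 to the end of Mirg spans 296638 bp and holds 104 annotated genes, of which 66 are miRNA genes and 23 are small nucleolar RNA genes. Meg3 has 11 annotated transcripts, Rian 20, Mirg 12, Dlk1 10 and Rtl1 1.

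The RefSeq annotation of GRCm38.p6 gave 112 mature miRNAs from 57 hairpins in this stretch, 106 of them on the plus strand. Exactly 11 of the mature miRNAs, from 6 genes, are reverse complements of the Rtl1 transcript over their whole length. These are shown because they tie Rtl1 to the RNAs of the opposite strand by sequence. The capitals mark the seed, bases 2 to 8 from the 5′ end.
mmu-miR-136-3p: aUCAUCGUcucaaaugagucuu
mmu-miR-136-5p: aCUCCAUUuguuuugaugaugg
mmu-miR-432: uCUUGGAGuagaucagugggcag
mmu-miR-434-3p: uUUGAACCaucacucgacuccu
mmu-miR-434-5p: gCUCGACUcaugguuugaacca
mmu-miR-127-3p: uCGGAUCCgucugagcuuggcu
mmu-miR-127-5p: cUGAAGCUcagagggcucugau
mmu-miR-433-3p: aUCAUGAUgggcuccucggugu
mmu-miR-433-5p: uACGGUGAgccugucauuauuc
mmu-miR-431-3p: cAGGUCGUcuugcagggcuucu
mmu-miR-431-5p: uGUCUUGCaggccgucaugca

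Along the 6358 bases of the Rtl1 transcript the complementary sites run in that order, from position 164 at the site of miR-136-3p to position 5092 at the end of the site of miR-431-5p. For example, the site of miR-127-3p covers positions 2642 to 2663, and the site of miR-431-5p covers positions 5072 to 5092. The capitals in these Rtl1 sites, taken from the GENCODE transcript, mark the bases opposite the seed.
Rtl1 site of miR-127-3p: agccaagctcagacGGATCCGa
Rtl1 site of miR-431-5p: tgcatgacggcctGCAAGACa

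Of the 112 mature miRNAs 111 are distinct, since miR-3070-5p comes from both Mir3070a and Mir3070b. The 111 carry 102 distinct seeds, and 9 seeds are shared, each by a pair of miRNAs. Both examples below come from the cluster between Rian and Mirg, which holds 48 of the mature miRNAs. The seed GGUAGAC is shared by miR-379-5p and miR-1193-5p, and the seed AUGUAAC by miR-379-3p and miR-411-3p.
mmu-miR-379-5p: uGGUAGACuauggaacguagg
mmu-miR-1193-5p: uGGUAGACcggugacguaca
mmu-miR-379-3p: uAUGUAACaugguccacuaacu
mmu-miR-411-3p: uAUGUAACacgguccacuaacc

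Of the mature miRNAs, 3 lie in exons of Meg3 and 8 in exons of Mirg on the same strand. Those of Meg3, and the pair in the Mirg transcript with the highest share, are shown for the account of the transcripts that carry them, again with the seed in capitals.
mmu-miR-1906: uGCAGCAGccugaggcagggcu
mmu-miR-770-5p: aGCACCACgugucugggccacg
mmu-miR-770-3p: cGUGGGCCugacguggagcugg
mmu-miR-377-5p: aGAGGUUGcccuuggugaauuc
mmu-miR-377-3p: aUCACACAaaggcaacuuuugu

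Promoter windows of 300 bases, 250 before and 50 after a RefSeq start in GRCm38.p6, were read for Meg3, which was the highest gene of the locus, and for Dlk1, its neighbour on the same strand. Each window was searched on both strands for TGACGTCA (the cyclic AMP response element), TATATAA (found in many core promoters), CCAAT and GGGCGG (a GC box). The upstream Meg3 window at chr12:109540746-109541045, on the plus strand, held TGACGTCA 57 bases before the start, CCAAT 100 bases before it, and TATATAA on each strand, the matches overlapping each other. The capitals mark these matches.
Meg3 upstream window: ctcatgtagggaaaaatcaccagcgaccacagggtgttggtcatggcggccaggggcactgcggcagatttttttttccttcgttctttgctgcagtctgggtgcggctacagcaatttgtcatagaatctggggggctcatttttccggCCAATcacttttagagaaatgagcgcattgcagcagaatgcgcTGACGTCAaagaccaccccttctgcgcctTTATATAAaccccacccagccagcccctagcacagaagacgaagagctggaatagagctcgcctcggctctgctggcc
Dlk1 window: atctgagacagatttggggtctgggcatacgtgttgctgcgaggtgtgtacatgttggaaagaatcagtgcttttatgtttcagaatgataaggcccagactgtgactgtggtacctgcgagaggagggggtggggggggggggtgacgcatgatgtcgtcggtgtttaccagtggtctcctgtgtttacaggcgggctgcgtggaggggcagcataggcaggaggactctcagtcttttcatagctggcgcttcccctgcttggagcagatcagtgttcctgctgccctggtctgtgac

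The Dlk1 window, at chr12:109452573-109452872 on the plus strand, held none of the 4 motifs. Among the 32851 windows of the RefSeq table, 1.79% held TGACGTCA, 3.24% held TATATAA, 37.4% held CCAAT and 35.7% held GGGCGG. The upstream Meg3 window had 13 CpG dinucleotides and a GC content of 53.7%, the Dlk1 window 9 CpG and 55.7%, and the median over all windows was 7 CpG and 52.7%. A second Meg3 window, at chr12:109545148-109545447, ends 50 bases into the long transcript Meg3-209, which starts at position 109545398. It held none of the 4 motifs and 1 CpG. The window of Rian, at chr12:109603695-109603994, held none of the motifs, and that of Mirg, at chr12:109734731-109735030, held CCAAT. A match describes the letters of a window only, and binding was not measured.

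Meg3 was the most abundant gene of the locus and one of the most abundant noncoding RNAs of the tissue. Its level was 824 TPM in replicate 1, where TPM is a length-corrected abundance on a scale with the same total in each library. In replicate 2 it was 779.8 TPM, which gives a mean of 802 ± 31.4 TPM (SD, n = 2). It ranked 5 among 5854 lincRNA genes, 255 of which were detected (TPM of 1 or more in each library), and 51 among 55499 nuclear genes. On chromosome 12 it ranked 10 among 2480 genes. The reads behind these levels were 68394 expected counts in replicate 1 and 56099 in replicate 2, of 34563482 and 32370292 over all genes.

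Rian, the host of the small nucleolar RNAs, was next. Its libraries gave 361 and 369 TPM (365 ± 5.90 TPM, SD, n = 2), from 13288 and 12466 expected counts. It ranked 2 among the 790 genes annotated as processed transcripts and 134 among all nuclear genes. Mirg, which hosts miRNAs at the far end of the locus, had 34.4 and 34.9 TPM in replicates 1 and 2 (34.6 ± 0.354 TPM, SD, n = 2), from 1445 and 1258 expected counts, and ranked 18 among lincRNA genes. All 3 noncoding RNAs were detected by that rule, as were 25.7% of all annotated genes.

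Dlk1 was low but detected. Replicate 1 had 3.93 TPM and replicate 2 had 3.38 TPM, a mean of 3.66 ± 0.389 TPM (SD, n = 2), from 264 and 215 expected counts. It ranked 10708 among 22015 protein-coding genes, of which 12660 were detected. The detected protein-coding genes had a median of 14.6 TPM. In bulk tissue a smaller number of expressing cells and less RNA per cell cannot be told apart, for Dlk1 or for any other gene here.

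Rtl1 was close to the limit of what the depth could show. It had 4 expected counts in replicate 1 and 7 in replicate 2, which is 0.03 and 0.05 TPM, or 0.116 and 0.216 CPM (counts scaled to the library total). A count of 0 would allow up to 0.0868 CPM in replicate 1 and 0.0927 CPM in replicate 2 (3 counts, counting error only). Its mean of 0.04 TPM was shared by 92 other protein-coding genes.

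Within each library the order was Meg3, Rian, Mirg, Dlk1, Rtl1, and each step between neighbours was larger than the spread between the libraries. Meg3 exceeded Rian in TPM 2.28-fold in replicate 1 and 2.11-fold in replicate 2, a log2 ratio of 1.13 ± 0.08 (SD, n = 2). Rian exceeded Mirg 10.5-fold and 10.6-fold (log2 3.40 ± 0.01), the ratio that varied least. Mirg exceeded Dlk1 8.74-fold and 10.3-fold (log2 3.25 ± 0.17), and Dlk1 exceeded Rtl1 131.0-fold and 67.6-fold (log2 6.56 ± 0.67), where the few Rtl1 counts set the precision.

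The 3 maternally expressed noncoding RNAs summed to 1219.5 TPM (replicate 1) and 1184 TPM (replicate 2), against 3.96 and 3.43 TPM for the 2 paternally expressed coding genes. The first sum was 308 times the second in replicate 1 and 345 times in replicate 2 (log2 8.35 ± 0.12, SD, n = 2). Meg3 alone exceeded Dlk1 209.7-fold and 231-fold. In TPM, Meg3 made up 67.4% and 65.7% of the 5 genes together, Rian 29.5% and 31.1%, Mirg 2.81% and 2.94%, and Dlk1 0.321% and 0.285%. Together the 5 genes took 0.241% of gene counts in replicate 1 (95% Clopper-Pearson interval 0.240% to 0.243%) and 0.216% in replicate 2 (0.215% to 0.218%).

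The second transcript table, derived from the reads directly, gave nearly the same Meg3 level, 822 and 758 TPM, but higher levels of Rian, at 661 TPM in both libraries. On that scale the Meg3 to Rian ratio came to a log2 of 0.26, against 1.13 in the gene table. Mirg was at 57.6 and 58.2 TPM there, Dlk1 at 5.69 and 5.51 TPM, and Rtl1 at 0.0355 and 0.0804 TPM. Higher TPM in the second table was not particular to Rian. The hippocampal marker Hpca was at 1735 and 1889 TPM there, against 1066 and 1130 TPM in the gene table. The neuron marker Snap25 was at 1471 and 1625 TPM, against 897 and 997 TPM. Mean TPM in the second table was 1.81 times that of the gene table for Rian, 1.67 times for Mirg, 1.53 times for Dlk1 and 1.45 times for Rtl1. Meg3, at 0.985 times, was the exception among the 5 genes. In relation to the other genes of the locus and to these markers, Meg3 was therefore lower in the second table. The cause was not tested. The imprinted gene Snurf was at 0 there. The order of the 5 genes was the same in both tables and both libraries. The counts behind Rian differed less between the tables, with 14301 and 13368 estimated counts in the second.

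**Figure D1:**
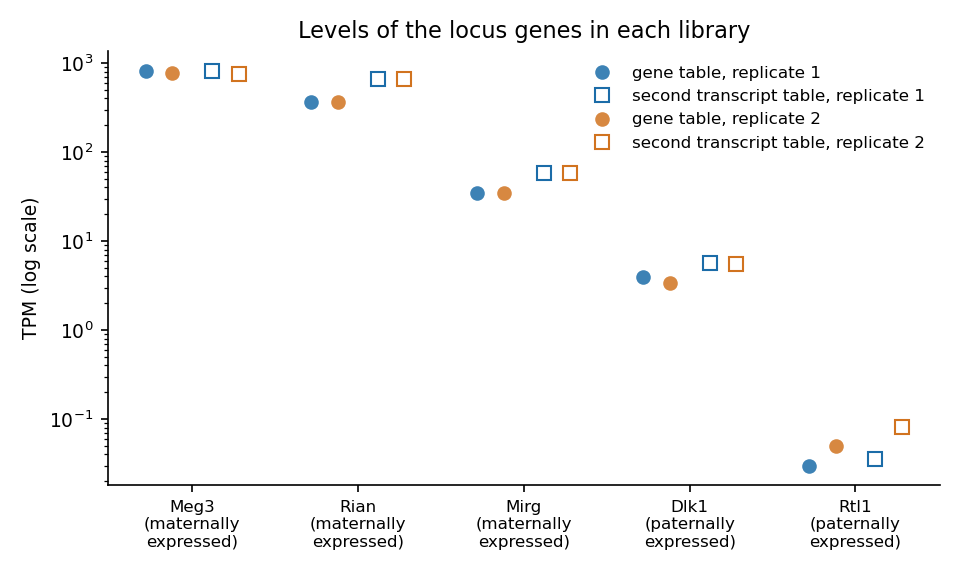
Level of each gene of the locus in TPM on a log axis, for each library, with filled circles for the gene table and open squares for the second transcript table. The parental expression under each name is background knowledge. Meg3 lies between 758 and 824 TPM over both tables, Rian is at 361 and 369 TPM in the gene table and at 661 TPM in the second, and Rtl1 lies below 0.1 TPM in both.

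Beside the 5 genes, the stretch from Dlk1 to Mirg held 8 other genes that averaged 1 TPM or more, 5 of them miRNA rows of a few counts each, which are described with the small RNAs. The other 3 were noncoding and on the plus strand. Gm26945, a lincRNA at chr12:109640341-109642351, lies inside the span of Rian on the same strand, so reads of the pair may be divided by the quantification model. It had 8.77 and 8.39 TPM in replicates 1 and 2. Gm37899, at chr12:109668869-109677585 between Rian and Mirg, was at 3.99 and 3.48 TPM. B830012L14Rik, at chr12:109695586-109702587, further towards Mirg, was at 2.39 and 1.94 TPM.

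Nearly all counts of the stretch fell on plus-strand genes, which had 84961 (replicate 1) and 71313 (replicate 2) expected counts over 94 genes. The 10 minus-strand genes, Rtl1 among them, had 5 and 8. Gm26906, annotated at chr12:109568628-109571723 on the strand opposite the 3′ end of Meg3, had 0 counts in both libraries. Whether strand was used in counting is not given in the sources used here, so reads of overlapping opposite genes cannot be assigned to a strand with certainty.

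**Figure D2:**
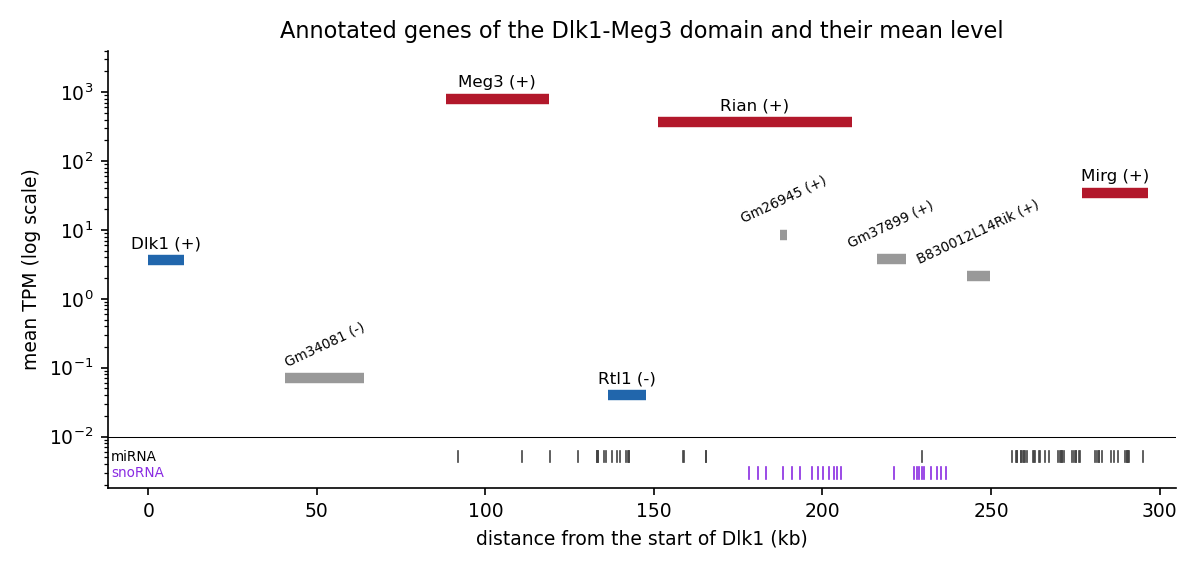
Mean level of each annotated gene other than miRNA and small nucleolar RNA genes with a TPM above 0, in TPM on a log axis, drawn over its span as distance from the start of Dlk1 in kb, with the strand in brackets. Red lines are Meg3, Rian and Mirg, blue lines are Dlk1 and Rtl1, grey lines are other genes, and the ticks below mark the positions of miRNA and small nucleolar RNA genes, whose levels are not drawn. Meg3, Rian and Mirg form the 3 highest lines, and the miRNA ticks cluster opposite Rtl1 and before and within Mirg.

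The small RNAs themselves were hardly measurable in these libraries. All 23 small nucleolar RNA genes, and 58 of the 66 miRNA genes, had an effective length of 0 in the gene table. The longest of them were 82 bases and 99 bases. Of the 8 longer miRNA rows 5 held counts, 23 in replicate 1 and 16 in replicate 2. Mir433, which lies opposite Rtl1, had 12 and 6 counts, listed at 19.1 and 10.4 TPM over an effective length of 25 bases, Mir1188 in an intron of Rian 5 and 5, Mir1197 4 and 2, Mir1193 1 and 1, and Gm27379 1 and 2. These rows span 120 to 124 bases and so cover more than a mature miRNA, and their counts are not mature miRNA levels. The second table listed all 5 at 0.

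By annotation, 2 miRNA genes lay in exons of Meg3, 6 lay opposite the exon sequence of Rtl1 and 1 lay within it on the same strand. In Mirg, 4 lay wholly in exons, 5 partly in exons and 5 in introns on the same strand, and 1 lay opposite an intron. Rian held 13 of the small nucleolar RNA genes, 8 in exons and 5 in introns, and 4 intronic miRNA genes. A further 38 miRNA genes and 10 small nucleolar RNA genes lay outside the 5 genes. In the first transcript table, transcripts with a small RNA wholly inside an exon made up 63.6% of Meg3 TPM in replicate 1 and 61.3% in replicate 2. They made up 53.2% and 48.6% of Mirg TPM, and 18.5% and 15.5% of Rian TPM. In the second transcript table these shares were higher, at 82.1% and 82.7% for Meg3, 58.7% and 54.1% for Mirg, and 23.6% and 21.8% for Rian.

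The transcript tables divided Meg3 in different ways. In the first table, derived from an alignment to the transcriptome, the highest share was that of Meg3-203, a transcript of 457 bases, with 24.98% of Meg3 TPM in replicate 1 and 27.8% in replicate 2. In the second table the same transcript held 0% and 1.83%. Its effective length was 358 bases in the first table and 142 and 139 bases in the second, and its counts were 1849.99 and 1790.1 against 0 and 33.0. For this transcript the tables differed far more than the libraries.

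Meg3-209, the longest transcript at 14548 bases and the one that carries miR-770 in an exon, held most of the Meg3 counts in both tables. Replicate 1 gave it 53301 expected counts and replicate 2 gave it 43106, or 77.9% and 76.8%, and 72.3% and 71.2% in the second table. Per length its share was 17.8% and 16.6% of Meg3 TPM in the first table and 24.2% and 23.0% in the second, where it ranked highest. Meg3-206, of 5971 bases, held 0.6% and 0.55% in the first table but 14.6% and 14.6% in the second. Meg3-205, of 1498 bases, starts at the upstream window and held 16.1% and 14.4% in the first table and 21.6% and 20.1% in the second, and Meg3-202, of 755 bases, held 18.6% and 18.7%, and 14.0% and 15.9%. Both carry miR-1906, as do Meg3-201, Meg3-206 and Meg3-207. Meg3-201 held 6.90% and 7.94% in the first table and 2.75% and 4.21% in the second, and Meg3-204 5.62% and 6.14%, and 17.9% and 15.5%.

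Rian was led by the same transcript in both tables. Rian-202, of 2355 bases at the 3′ part of the gene, held 32.5% of Rian TPM in replicate 1 and 33.8% in replicate 2 in the first table, and 24.8% and 26.1% in the second. Rian-213, of 1219 bases, followed with 20.1% and 22.2%, and with 20.1% and 22.5%. Rian-211 held 8.11% and 9.60% in the first table and Rian-205 6.41% and 4.80%, while Rian-205 reached 13.9% and 12.8% in the second. Of the other named transcripts, Rian-203, Rian-204, Rian-207 and Rian-216 stayed below 10% in both tables and libraries. Rian-202 and Rian-213 hold no annotated small nucleolar RNA wholly inside an exon. Rian-202 starts at position 109646141, within the small nucleolar RNA gene Gm24895 at chr12:109646129-109646202, and so overlaps part of it.

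Mirg was also led by 1 transcript per length in both tables. Mirg-201, of 1906 bases with miR-377 in an exon, held 27.8% and 27.9% of Mirg TPM in the first table and 26.5% and 25.5% in the second. Mirg-203, which starts at the 5′ end of the gene, held 19.6% and 20.7%, and 20.6% and 20.1%. Mirg-207, of 694 bases at the 3′ end, held 20.5% and 22.6% in the first table but 0.00144% and 6.21% in the second. Mirg-206, whose annotated start at position 109734981 is the RefSeq start of the Mirg window, showed the converse, with 0% and 4.03% in the first table and 17.2% and 16.01% in the second. The long transcripts Mirg-204, Mirg-208 and Mirg-212, which carry miR-134, miR-485 and miR-410, held between 3.12% and 12.1% each in the first table. In the second table Mirg-208 held 16.6% and 16.3%, Mirg-204 11.6% and 8.60%, and Mirg-212 4.06% and 3.68%. By counts of the second table Mirg-208 led the gene, with 29.1% and 31.0%, while Mirg-201 led by counts of the first, with 29.9% and 32.2%.

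Dlk1 transcripts rested on few reads, and their shares differed between the libraries as well as between the tables. Dlk1-208, with 310 annotated codons, held 30.8% of Dlk1 TPM in replicate 1 and 53.7% in replicate 2 in the first table, and 17.2% and 10.8% in the second. Its expected counts were 116 and 159.9, with a posterior SD of 37.3 and 31.7 that the authors' table gives for read assignment. Dlk1-206, with 334 codons, held 19.9% in replicate 1 and 0% in replicate 2, and Dlk1-203, with 312 codons, 13.8% and 0%. In the second table they held 8.21% and 15.2%, and 30.3% and 18.8%. The transcripts with 385 codons, the longest annotated coding sequence, together held 33.1% and 42.5% in the first table and 42.3% and 43.2% in the second. Within that class the first table gave all of it to Dlk1-205 and the second most of it to Dlk1-201, at 34.4% and 26.9%. In counts the class held 19.9% and 24.7% in the first table, against 57.4% and 54.9% in the second, so its share differed between the tables on that scale. Dlk1-209, with 121 codons, held at most 7.84%, in replicate 2 of the second table. Rtl1 has 1 annotated transcript, Rtl1-201, with 1744 codons.

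**Figure D3:**
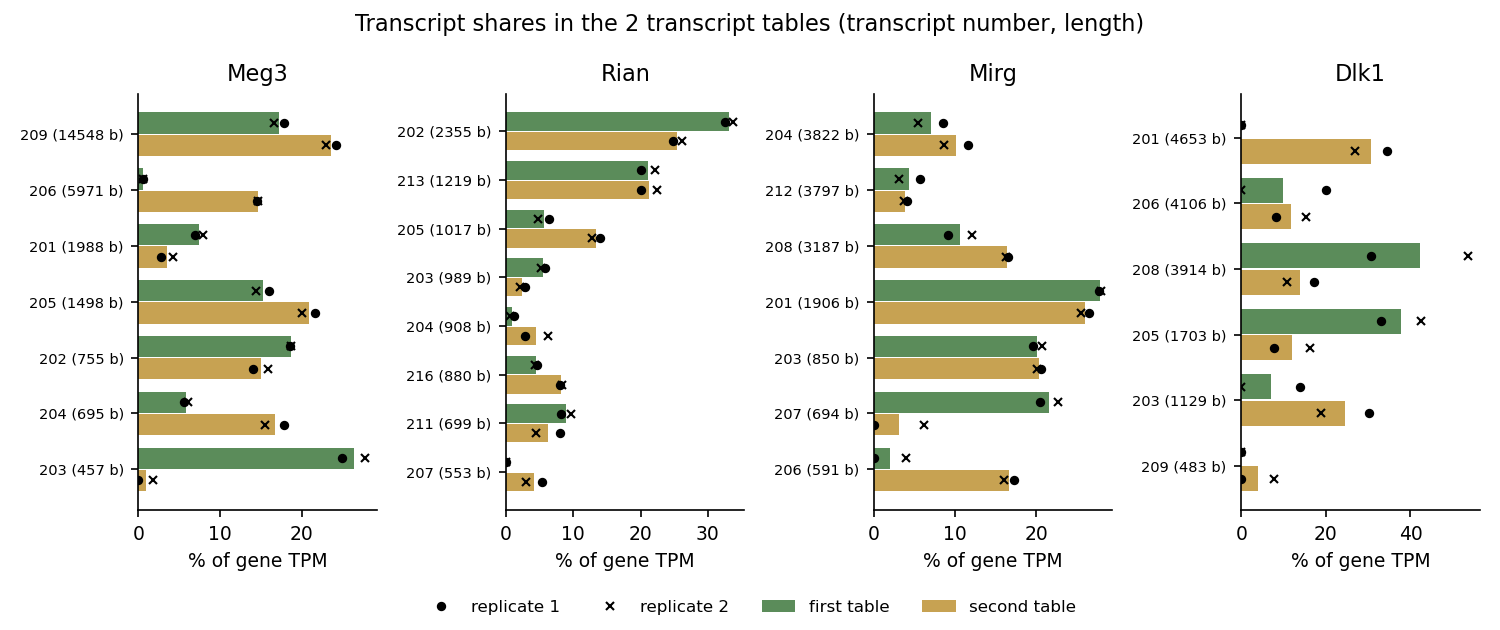
Share of each named transcript in the TPM of its gene in percent, for Meg3, Rian, Mirg and Dlk1, ordered by transcript length in bases. Bars are means over the 2 libraries, green for the first and yellow for the second transcript table, and circles and crosses are replicates 1 and 2. The short Meg3-203 is high in the first table and at most 1.83% in the second, Rian-202 and Mirg-201 lead their genes in both, and the Dlk1 points lie far apart.

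The 2 libraries were compared in counts scaled by trimmed mean of M values. Meg3 was 1.16 times as high in replicate 1 as in replicate 2 (95% Clopper-Pearson interval 1.14 to 1.17, counting error only). Rian was at 1.01 times (0.988 to 1.04), Mirg at 1.09 times (1.01 to 1.18), Dlk1 at 1.17 times (0.970 to 1.40) and Rtl1 at 0.543 times (0.116 to 2.13). Among the 11418 genes whose CPM averaged 5 or more, 0.140% were at least 2-fold apart and 18.0% at least 1.1-fold. Of the 4 genes of the locus above that minimum, none was 2-fold apart, and 2, Meg3 and Dlk1, were at least 1.1-fold apart. The median absolute log2 difference over all these genes was 0.06. The intervals of Meg3 and Mirg excluded equal levels, but they cover counting error and no spread between replicates of the group.

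**Figure D4:**
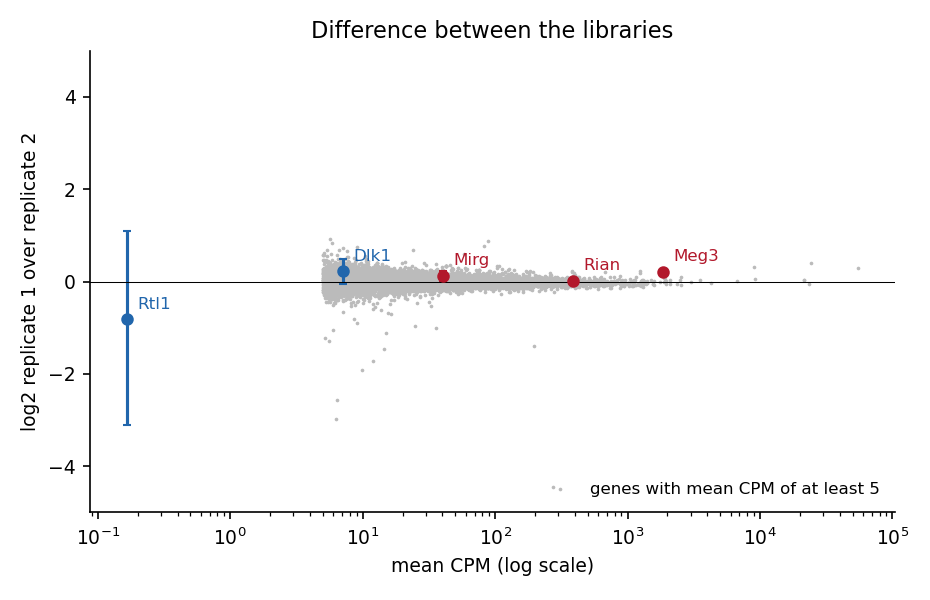
Log2 ratio of replicate 1 over replicate 2 against mean CPM on a log axis, with grey points for genes whose CPM averaged 5 or more, red for Meg3, Rian and Mirg and blue for Dlk1 and Rtl1. Bars are 95% Clopper-Pearson intervals of the ratio, for counting error only. The 4 genes of the locus above the minimum lie between 1.01 and 1.17 times, and the bars of Rian, Dlk1 and Rtl1 include equal levels.

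The label of the tissue was checked against marker genes. All 4 hippocampal markers were detected, led by Hpca, the neuronal calcium sensor hippocalcin, at 1098 ± 44.7 TPM (SD, n = 2). All 4 neuron markers were detected too, with summed levels of 1818 and 1981 TPM in replicates 1 and 2. Markers of neighbouring regions, hypothalamus and thalamus, summed to 21.8 and 19.4 TPM. Of these, Prkcd, at 15.0 and 13.3 TPM, and Tcf7l2, at 5.15 and 4.52 TPM, were detected. Pomc, Avp, Oxt and Hcrt were each below 1 TPM in both libraries. The 6 choroid plexus markers summed to 37.5 TPM (replicate 1) and 699.8 TPM (replicate 2), and none of them was at 0. Ttr, the transthyretin gene, made up 29.9 and 672 TPM of these sums, and the other 5 markers summed to 7.54 and 27.4 TPM. Their part in the levels of the locus was not tested. Over the same libraries Meg3, Rian, Mirg and Dlk1 had the ratios given above, between 1.01 and 1.17, and Rtl1 had 0.543, lower in replicate 1 as the choroid plexus markers were, with an interval that includes equal levels. The neural progenitor markers Sox2, Dcx and Nes, at 15.6, 2.40 and 2.00 TPM, were detected, and Eomes, at 0.03 TPM, was not.

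Among 39 imprinted genes listed by known parental expression, 31 (9 of 13 maternally and 22 of 26 paternally expressed) were detected, against 25.7% of all annotated genes. Among protein-coding genes alone, 12673 of 22028 were detected. The classes are background. For some genes listed as maternally expressed, Grb10, Ube3a and Gnas among them, the expressed allele depends on the cell type or the transcript. Their levels are therefore not levels of the maternal allele. The median was 11.3 TPM for the maternally and 20.3 TPM for the paternally expressed genes, against 0 TPM for all annotated genes and 13.1 TPM for the detected ones. By mean level in the gene table Meg3 ranked 2, Rian 5, Mirg 16, Dlk1 28 and Rtl1 38, and in the second table Meg3 ranked 3, Rian 4, Mirg 15, Dlk1 27 and Rtl1 36. In the gene table Snurf, of the Snrpn locus, was above Meg3, at 985 ± 48.1 TPM (SD, n = 2), and shares its RNA with Snrpn, so the division between that pair is uncertain. The second table listed Snurf at 0 in both libraries. Gnas, which encodes the stimulatory G protein alpha subunit, averaged 797 ± 59.5 TPM in the gene table, where it differed from Meg3 by less than the spread between the libraries. In the second table it was above Meg3 in both libraries, at 1332 and 1496 TPM, against 822 and 758 TPM for Meg3. Snhg14, the host RNA of small nucleolar RNAs at the Snrpn locus, stood between Rian and Gnas in the gene table, at 526 ± 8.50 TPM. In the second table it was above Meg3, at 840.4 and 816 TPM. In the gene table Rian was followed by Snrpn at 345 ± 20.5 TPM, the exchange factor gene Rasgrf1 at 221 ± 2.10 TPM and the neuronatin gene Nnat at 203 ± 18.99 TPM. By that mean Rtl1 was above Phlda2 alone, which had 0 counts in both libraries.

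**Figure D5:**
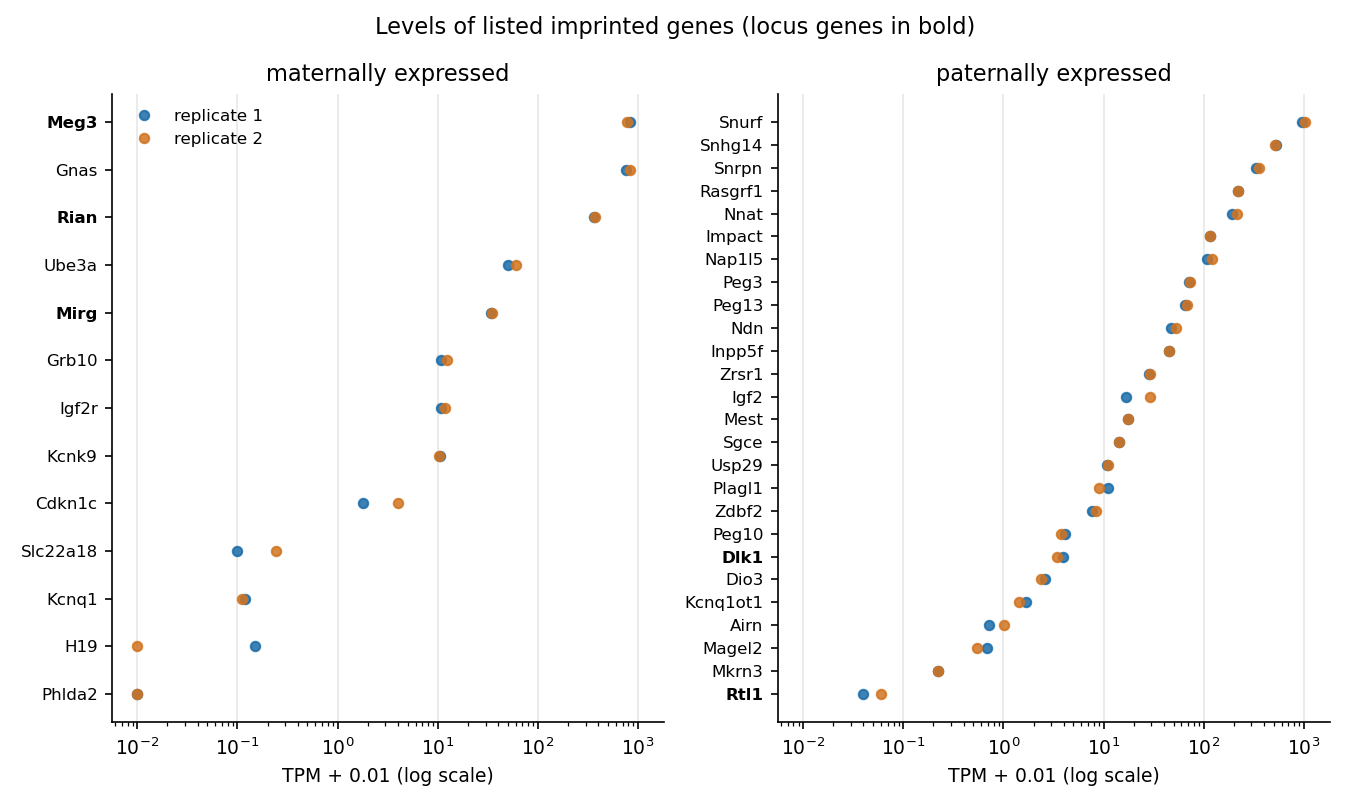
Levels of 13 maternally (left) and 26 paternally (right) expressed imprinted genes in each library, as TPM plus 0.01 on a log axis, ordered by mean, with the genes of the Dlk1-Meg3 locus in bold. Parental expression is background knowledge, and for some genes, Grb10, Ube3a and Gnas among them, it depends on the cell type or the transcript. The levels are those of the gene table, and by their means Meg3 and Rian rank 1 and 3 among the maternally expressed genes, with Gnas above Meg3 in replicate 2, and Dlk1 and Rtl1 rank 20 and 26 among the paternally expressed genes.

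The genes next to the locus had levels of their own. On the Dlk1 side, Begain, a postsynaptic protein gene, averaged 56.5 TPM, Wdr25 4.83 TPM and Wars, the tryptophanyl-tRNA synthetase gene, 35.3 TPM. On the Mirg side, Dio3, the paternally expressed deiodinase that inactivates thyroid hormone, had 2.59 and 2.36 TPM in replicates 1 and 2. Its antisense gene Dio3os had 0.64 TPM in both, and the phosphatase subunit gene Ppp2r5c averaged 100.5 TPM. Dio3 was below Dlk1 in both libraries.

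Dlk1 was set beside 20 genes of the Delta-Notch pathway, since Dlk1 is a Delta-like protein. It lacks the domain by which ligands such as Dll1 and Jag1 bind Notch. Of the 20 genes, 17 were detected, against 12673 of the 22028 protein-coding genes, those of the mitochondrial genome included. The median over the list was 6.60 TPM, against 3.15 TPM for all protein-coding genes and 14.6 TPM for the detected ones. The Dlk1 paralog Dlk2 averaged 19.4 ± 0.983 TPM (SD, n = 2), above Dlk1 at 3.66 ± 0.389 TPM by more than the spread. The highest were the neuronal ligand gene Dner at 44.4 ± 2.46 TPM, the Notch-cleaving protease gene Adam10 at 26.8 ± 1.26 TPM and the target gene Hey1 at 20.6 ± 1.82 TPM, followed after Dlk2 by the ligand Jag2 at 17.2 ± 0.587 TPM and the target Hes1 at 9.99 ± 0.537 TPM. The receptors Notch1 and Notch2 were at 9.93 ± 0.955 and 9.22 ± 0.332 TPM. The ligand Dll3 was lowest, at 0.72 ± 0.141 TPM.

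By level alone, the nearest lincRNA genes to Meg3 were Gm42418 above, at 2050.5 ± 47.4 TPM, and 2900097C17Rik below, at 481 ± 42.2 TPM (SD, n = 2). Rian stood between Snhg14 and Gas5, another host of small nucleolar RNAs, at 122 ± 9.85 TPM. Mirg stood between Gm10419 at 36.4 ± 1.24 TPM and Neat1, the architectural RNA of paraspeckles, at 26.1 ± 3.68 TPM, and its libraries overlapped those of neither neighbour. Among protein-coding genes, Triobp had the same mean as Dlk1 to the third decimal, and Dnaic1 followed at 3.65 ± 0.792 TPM. Likeness was measured in mean TPM within a biotype over 2 libraries, which allow no likeness of pattern.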

How the data were processed

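Total RNA of 2 hippocampal libraries was used, grouped by the labels. For each library the authors deposited a gene table and 2 transcript tables. Per the deposited notes, reads were compared with mm10 and GENCODE M21; no tool name is given in the sources used here. The gene and first transcript tables have, per the file headers, the layout of RSEM: an expected count, TPM, the percent of a gene's TPM in each transcript, and the posterior SD of the expected count, a score of read assignment. The second transcript table, per the file headers in the layout of kallisto, gives an estimated count and TPM from the reads directly. The assembly represents C57BL/6J, so CAST/EiJ reads may align less well.

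Levels are the deposited TPM. ERCC rows (0.418% and 0.479% of counts), 26248 rows named by a number and 1 other row stayed out of library sizes. Expected counts were rounded and scaled by TMM in edgeR 4.0.16 (R 4.3.3) with a prior count of 0.5 for log2 ratios. Ratios have 95% Clopper-Pearson intervals and floors rest on 3 counts, and both cover counting error only, since reads need not be independent molecules. A gene was detected at 1 TPM or more in each library. Transcripts were named at 5% of gene TPM in either table and library, other genes of the stretch at a mean TPM of 1, list genes if among the 6 highest or the lowest; Notch1, Notch2 and the imprinted or marker genes named beside these were added after their values were seen. The 1.1-fold share between the libraries was added after the data were seen. The genes of the locus and the lists were chosen with earlier results of these data known. Other steps used Python 3.11.15 (scipy 1.17.1, numpy 2.4.6, pandas 2.3.3, matplotlib 3.10.9), and the scaling step was tested on simulated data. Alternatives were DESeq2 1.42.0 size factors, library totals, spike-in scaling, other minimum levels, the second table, posterior mean TPM, rescaled TPM, counts without length correction, a pseudocount, and each library left out.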

Additional observations from a re-analysis of the deposited data

How the results depend on the processing

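Of 44 levels, ratios between genes and transcript shares under alternatives, 9 stayed within 1 SD between the libraries and 35 did not, and 0 of the ratios between genes changed direction. Of 20 differences between the libraries 16 stayed within the counting interval. The causes were not tested. Imprinted genes detected numbered 35 at a minimum of 0.1 TPM and 26 at 5 TPM, against 31. The log2 difference of Rian between the libraries, 0.02, was -0.0025 with library totals. Rescaling TPM over nuclear protein-coding and long noncoding genes put Meg3 at 1799.9 TPM, Rian at 819, Mirg at 77.6, Dlk1 at 8.21 and Rtl1 at 0.0893. Rescaling multiplies every TPM by 2.29 in replicate 1 and by 2.20 in replicate 2. These moves, which are among the 35, therefore reflect the change of scale. The second transcript table gave Rian 661 TPM, Mirg 57.9, Dlk1 5.60 and Rtl1 0.0580, and posterior mean TPM gave Rian 358 and Dlk1 4.195. With each library left out, which with 2 libraries stays within 1 SD by construction, Meg3 ranged from 779.8 to 824 TPM, Rian from 361 to 369, Mirg from 34.4 to 34.9, Dlk1 from 3.38 to 3.93 and Rtl1 from 0.03 to 0.05.

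The log2 ratio in the second table was 0.26 for Meg3 over Rian, 3.77 for Meg3 over Mirg, 3.51 for Rian over Mirg, 7.14 for Meg3 over Dlk1 and 8.06 for the maternally over the paternally expressed sum. Without length correction it was 2.27, 5.52, 3.25 and 8.02 for the first 4 of these, 2.501 for Mirg over Dlk1 and 5.49 for Dlk1 over Rtl1. With a pseudocount of 1 TPM it was 3.36 for Rian over Mirg, 7.43 for Meg3 over Dlk1, 2.94 for Mirg over Dlk1, 2.16 for Dlk1 over Rtl1 and 8.00 for the sums. With each library left out the log2 ratios ranged from 1.08 to 1.19 for Meg3 over Rian, 4.48 to 4.58 for Meg3 over Mirg, 3.39 to 3.41 for Rian over Mirg, 7.71 to 7.85 for Meg3 over Dlk1, 3.13 to 3.37 for Mirg over Dlk1, 6.08 to 7.03 for Dlk1 over Rtl1 and 8.27 to 8.43 for the sums.

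Between the libraries, spike-in scaling gave log2 ratios of 0.39 for Meg3, 0.20 for Rian and 0.30 for Mirg, having moved the median of all genes by 0.18, and library totals gave 0.19 for Meg3. Genes at least 2-fold apart numbered 77 at a mean CPM of 1 and 5540 with no minimum, against 16. Shares of the leading transcripts were 0.915% for Meg3-203, 25.5% for Rian-202, 26.0% for Mirg-201 and 14.0% for Dlk1-208 in the second table, and 2.95%, 51.0%, 31.1% and 59.1% in expected counts; with each library left out they ranged from 24.98% to 27.8%, 32.5% to 33.8%, 27.8% to 27.9% and 30.8% to 53.7%. No paired analysis was possible because the labels give 1 group. Depth limits Rtl1. For Meg3-203, Mirg-206 and Dlk1-201 the tables differed more than the libraries.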
